A study of Mus musculus with 10 samples.

Results

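The calcium pumps and exchangers described here are the products of 9 mouse genes: the plasma membrane pumps Atp2b1, Atp2b2 and Atp2b4, the reticulum pumps Atp2a1, Atp2a2 and Atp2a3, the Golgi pump Atp2c1, the plasma membrane exchanger Slc8a1 and the mitochondrial exchanger Slc8b1. Members were taken by gene symbol, and all 9 of them were found among the 18193 genes that carry a probe set with 1 symbol. They are read by 26 probe sets, of which 22 passed the filter for low signal (a log2 value over 4 on at least 4 arrays). The group was selected on the measured difference of Atp2b4, which had stood out between the genotypes in an earlier reading of the same values. Its difference is therefore described without a p-value, and tests between genotypes are given for the other 8 genes only. Counts of members past the threshold that include Atp2b4 are given at the end as a description and test nothing.

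Transcripts were measured in total RNA from whole aorta of male C57BL/6 mice kept on chow, on 1-colour arrays of 45101 probe sets. One group was wild type. The other was Ptgds-/-, which lacks L-PGDS, the lipocalin-type synthase of prostaglandin D2. No age, litter or substrain is given. The labels name 5 biological replicates per genotype. Wild type replicate 2 was excluded per its label and holds no values, so 4 wild type arrays (replicates 1, 3, 4 and 5) and 5 knockout arrays (replicates 1 to 5) were compared. Values of single arrays are given in that order of replicates.

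Calcium that enters the cytosol during contraction is cleared along several routes. Plasma membrane calcium ATPases (Atp2b genes), which calmodulin activates, and the sodium/calcium exchanger Slc8a1 carry it out of the cell. The sarcoplasmic and endoplasmic reticulum ATPases (Atp2a genes) return it to the store from which it was released, and the smooth muscle of the vessel wall relies mainly on Atp2a2 for this. Atp2c1 loads the Golgi with calcium and manganese, and Slc8b1 lets calcium out of mitochondria in exchange for sodium.

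Ptgds, on probe set 1423859_a_at, lay between 8.68 and 10.31 on the wild type arrays and between 3.67 and 4.40 on the knockout arrays. The arrays had median log2 values of 5.88 to 5.97 and mean pairwise correlations of 0.990 to 0.992; that of wild type replicate 3 was 0.983. Smooth muscle markers, which define the labelled tissue, had 10 of 10 genes tested, with a mean of 12.17 to 12.34 in wild type and 12.23 to 12.38 in knockout aortas. Other cell types differed between single arrays. Fast skeletal muscle markers (10 of 13 tested) had means of 4.92 to 5.20 in wild type and of 5.0 to 5.42 on 4 knockout arrays, but 9.91 on knockout replicate 3. Neuron markers (10 of 12 tested) were highest on wild type replicate 3 at 10.98 and knockout replicate 1 at 9.27, and lay between 4.84 and 7.64 elsewhere. In a tissue extract, fewer cells of a type and less RNA per cell cannot be told apart.

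Atp2b4, a plasma membrane pump that also binds neuronal nitric oxide synthase, is read by probe set 1445701_at alone. The platform lists this set under a GenBank record that is not a RefSeq mRNA. Where its probes lie in the transcript is not given in the sources used here, and no further set of the gene could be compared. Its log2 values were 9.86, 9.47, 9.62 and 9.72 in the wild type aortas. The knockout aortas stood at 10.40, 10.67, 10.55, 10.28 and 10.43. All 5 knockout arrays lay above all 4 wild type arrays, and the gap between the highest wild type and the lowest knockout array was wider than the spread within either group. The wild type mean was 9.67 ± 0.16 (SD, n = 4) and the knockout mean 10.46 ± 0.15 (SD, n = 5), a difference of 0.80 on the log2 scale (SE 0.10), or 1.74-fold. This difference chose the gene and is given as a description.

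Leaving out each array in turn gave Atp2b4 differences of 0.73 (without wild type replicate 3) to 0.86 (without wild type replicate 1). The difference was 0.74 with the neuron markers as a covariate, 0.78 with the fast skeletal muscle markers and 0.79 with the adipocyte markers. The smooth muscle, cardiomyocyte, endothelial, fibroblast and macrophage markers were not used as covariates. Since the difference chose the gene, these values and those with an array left out are descriptions and test nothing. Within genotypes, Atp2b4 and the smooth muscle markers had a Pearson r of 0.023 over the 9 arrays (exact permutation within genotype, p = 0.96, adjusted p = 0.97 over 72 relations; Spearman rho 0.167, p = 0.71, adjusted p = 1.0; r 0.035 without the 2 arrays farthest from the median of the markers). With the neuron markers r was −0.636 (exact permutation p = 0.098, adjusted p = 0.93), rho −0.80 (p = 0.017, adjusted p = 0.6) and, without 2 arrays, r −0.462. Of all 72 relations between the 9 members and 8 marker lists, 5 had an unadjusted p under 0.05 and 0 passed the adjustment.

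Atp2b1, the plasma membrane pump found in nearly all cell types, did not follow Atp2b4. Its brightest probe set, 1452969_at, read 10.67, 10.62, 10.66 and 10.79 in the wild type aortas and 10.59, 10.61, 10.72, 10.71 and 10.75 in the knockout aortas. The groups overlapped, with knockout replicates 1 and 2 below every wild type array and wild type replicate 5 above every knockout array. The change was −0.011 (SE 0.060, 95% interval −0.15 to 0.12), with an adjusted p of 0.939 over all genes (limma). The other probe sets of Atp2b1 changed by −0.041 (1428937_at) and 0.035 (1428936_at), with adjusted p-values of 0.821 and 0.820 over all probe sets (limma). Within genotypes, Atp2b1 and the endothelial markers had r 0.773 over 9 arrays (exact permutation p = 0.031, adjusted p = 0.56 over 72 relations; rho 0.80, p = 0.017, adjusted p = 0.6), which was 0.312 without wild type replicate 5 and knockout replicate 1.

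Atp2b2, the plasma membrane pump known from neurons and the hair cells of the inner ear, lay lower in the knockout aortas without passing the test. Probe set 1433888_at stood at 8.65, 9.05, 7.66 and 8.85 in the wild type aortas. The knockout aortas stood at 8.20, 8.29, 8.50, 6.60 and 7.82. Replicate 4 was the lowest array of each genotype, and 4 knockout arrays lay within the wild type range. The change was −0.67 (SE 0.42, 95% interval −1.61 to 0.27; adjusted p 0.396, limma), and it ran from −0.97 to −0.35 when replicate 4 of either genotype was dropped.

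The dimmer Atp2b2 probe set 1420403_at pointed the same way, with means of 5.82 ± 0.24 (SD, n = 4) in wild type and 5.31 ± 0.26 (SD, n = 5) in knockout aortas. On it 4 of 5 knockout arrays lay below every wild type array. The change of −0.51 (SE 0.15) had an adjusted p of 0.152 over all probe sets (limma). A further Atp2b2 probe set, 1420402_at, lay between 3.16 and 3.94 on all 9 arrays and was not tested.

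Atp2b2 was set against the marker lists as deviations from the genotype means, pooled over both genotypes. None of its 8 relations passed adjustment, and they were not compared with each other. With the mean of the 8 fibroblast markers r was 0.778 over 9 arrays (exact permutation within genotype, p = 0.020, adjusted p = 0.56 over 72 relations), rho 0.450 (p = 0.25, adjusted p = 0.88), and r 0.845 without wild type replicates 4 and 5. With macrophage markers r was 0.659 (exact permutation p = 0.028, adjusted p = 0.56), rho 0.500 (p = 0.19, adjusted p = 0.88) and r 0.726 without the same arrays. With neuron markers r was 0.127 (exact permutation p = 0.83, adjusted p = 0.95), rho 0.10 (p = 0.81, adjusted p = 1.0) and r −0.618 without wild type replicate 3 and knockout replicate 1. The fibroblast mean was lowest on replicate 4 of each genotype, at 11.71 in wild type and 11.78 in knockout. Macrophage markers were lower in the knockout in 9 of 9 genes, with means of 8.86 to 9.97 in wild type and 8.99 to 9.30 in knockout aortas. Their part in the Atp2b2 values was not tested beyond these relations. Other lists were also lower: adipocyte, neuron and endothelial markers in 10 of 10 genes each, cardiomyocyte in 7 of 9 and fibroblast in 6 of 8. Fast skeletal muscle markers were higher in 10 of 10 genes and smooth muscle markers in 7 of 10, beside 56.7% of all tested genes.

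**Figure D1:**
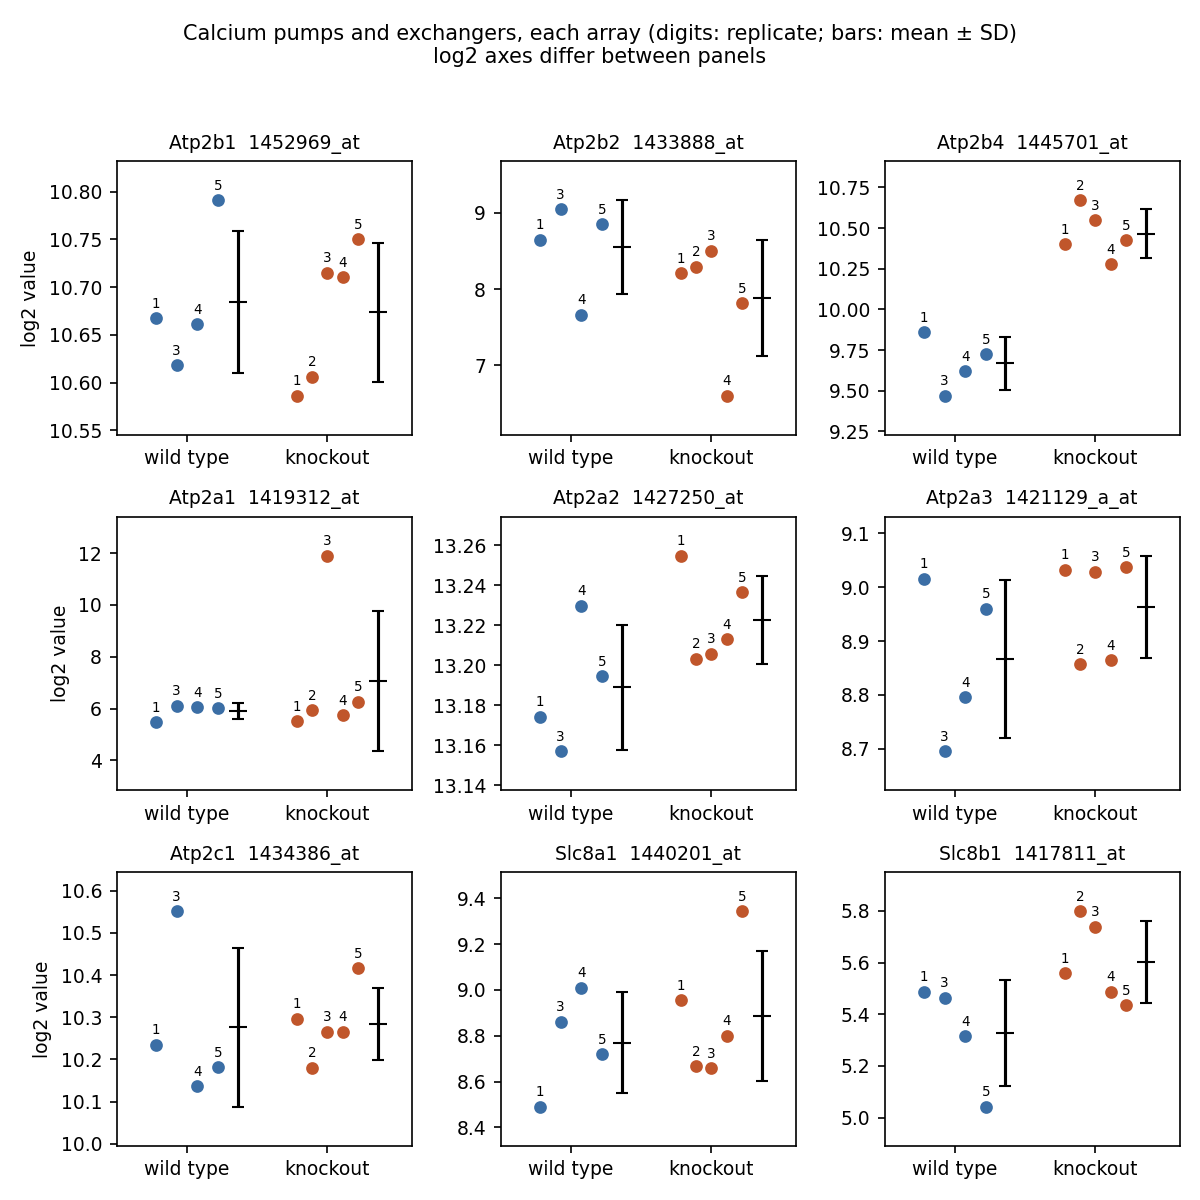
Log2 value of the brightest probe set of each of the 9 genes on every array, wild type in blue and knockout in orange, with the replicate number above each point and the mean ± SD beside each group (n = 4 and 5). The vertical axes differ between panels: Atp2b4 is the panel in which all 5 knockout points lie above all wild type points, and Atp2a1 the one in which knockout replicate 3, at 11.90, stands apart from 8 arrays.

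Atp2a2, the reticulum pump of cardiac and smooth muscle, held nearly the same value on every array on its brightest probe set. This set, 1427250_at, lay between 13.16 and 13.23 in wild type and between 13.20 and 13.25 in knockout aortas. Dimmer sets of the gene varied more, and 1427251_at ran from 9.36 to 9.93 over all arrays. The change on 1427250_at was 0.034 (SE 0.045, 95% interval −0.067 to 0.13, adjusted p 0.699, limma).

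Of the 6 Atp2a2 probe sets, all but the brightest were put into subsets by how they varied, a division noticed after their values were seen. Sets 1416551_at, 1452363_a_at and 1427251_at varied together within genotypes (r 0.854 to 0.963 over 9 arrays). Sets 1437797_at and 1443551_at also varied together (r 0.929), and between these subsets r ran from −0.355 to 0.039. The brightest set, 1427250_at, had r 0.601 to 0.661 with the first subset and −0.263 and −0.098 with the second. The first subset changed by 0.081, 0.12 and 0.17 and the second by 0.010 and −0.20. On the second subset the values of knockout replicate 5 were the lowest of all 9 arrays, at 10.38 and 5.97. None of the 6 passed, with adjusted p-values of 0.378 to 0.976 over all probe sets (limma). These correlations are descriptions over shared arrays. Where the probes lie in the transcript is not given in the sources used here.

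Atp2a3, the reticulum pump known from endothelium, platelets and other blood cells, overlapped between genotypes. Probe set 1421129_a_at read 9.02, 8.70, 8.80 and 8.96 in the wild type aortas and 9.03, 8.86, 9.03, 8.86 and 9.04 in the knockout aortas. The change was 0.097 (SE 0.082, 95% interval −0.088 to 0.28; adjusted p 0.533, limma). Dropping wild type replicate 1 moved it to 0.15, and dropping wild type replicate 3 to 0.040. The dimmer set 1450124_a_at changed by −0.13 (adjusted p 0.762 over all probe sets, limma), although both varied together within genotypes (r 0.83 over 9 arrays). Neuron, adipocyte and endothelial markers were each lower in 10 of 10 genes. The endothelial markers had means of 9.09 to 9.50 in wild type and 8.84 to 9.18 in knockout aortas. Within genotypes Atp2a3 and these markers had r 0.425 over 9 arrays (exact permutation p = 0.33, adjusted p = 0.93; rho 0.55, p = 0.21, adjusted p = 0.88), and r 0.667 without wild type replicate 5 and knockout replicate 1. The Atp2a3 relation of largest absolute r was that with the cardiomyocyte markers, at r −0.733 (exact permutation p = 0.04, adjusted p = 0.58; rho −0.700, p = 0.062, adjusted p = 0.88; r −0.788 without wild type replicate 4 and knockout replicate 1).

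Atp2a1, the reticulum pump of fast skeletal muscle, was set by 1 array. It stood at 5.47, 6.11, 6.04 and 6.01 in the wild type aortas. The knockout aortas stood at 5.51, 5.93, 11.90, 5.73 and 6.27. Knockout replicate 3 lay far above the other 8 arrays, which overlapped between genotypes. The change over all arrays was 1.16 (SE 1.2; adjusted p 0.618, limma), and without knockout replicate 3 it was −0.048 (adjusted p 0.916), from 5.91 ± 0.30 (SD, n = 4) to 5.86 ± 0.32 (SD, n = 4).

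The same array carried the genes of fast skeletal muscle. All 10 tested markers were highest on knockout replicate 3. Among them, the calcium buffer gene Pvalb read 11.70 there against 3.59 to 5.16 elsewhere, and the troponin gene Tnnt3 11.06 against 5.20 to 6.03. The myosin gene Myh4, which did not pass the filter, read 10.44 there and 2.61 to 3.79 on the other arrays. Of the other myosin genes below the filter, Myh1 read 6.03 on knockout replicate 3 and 2.46 to 4.79 elsewhere, whereas Myh2 was highest on wild type replicate 3 at 4.31, with 3.18 to 4.11 elsewhere. Ryr1, the calcium release channel of skeletal muscle, stood at 9.32 on knockout replicate 3 and between 4.25 and 5.11 on the others. Within genotypes, Atp2a1 and the marker mean had r 0.997 over 9 arrays (exact permutation p = 0.0056, adjusted p = 0.40 over 72 relations) and rho 0.917 (p = 0.030, adjusted p = 0.62). Without knockout replicates 3 and 5, r was 0.783.

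**Figure D2:**
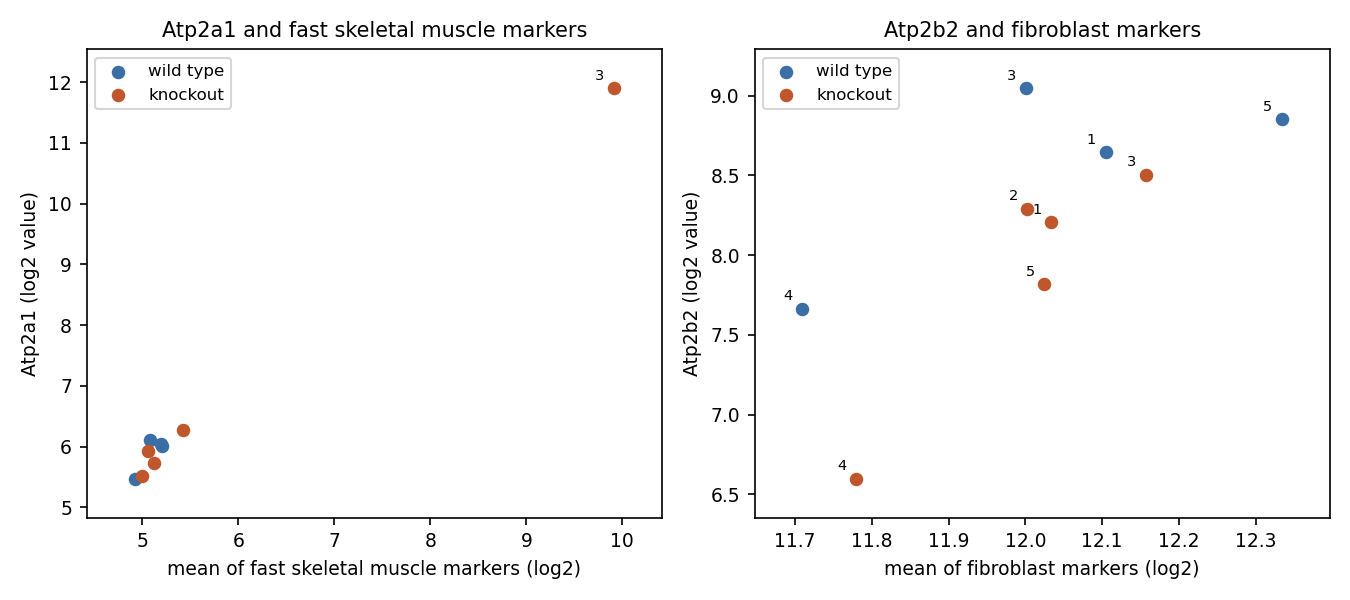
Left, Atp2a1 against the mean of the tested fast skeletal muscle markers; right, Atp2b2 against the mean of the fibroblast markers, both in log2, each point an array (wild type blue, knockout orange). Replicates are numbered on the right, and on the left only knockout replicate 3, which stands alone at a marker mean of 9.91; replicate 4 of each genotype is lowest on both axes of the right plot.

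Atp2c1, the Golgi pump, gave 5 tested probe sets whose groups all overlapped. The brightest, 1434386_at, read 10.24, 10.55, 10.14 and 10.18 in the wild type aortas and lay between 10.18 and 10.42 on the knockout arrays. Wild type replicate 3 was the highest of all 9. The change was 0.0087 (SE 0.092, 95% interval −0.20 to 0.22; adjusted p 0.969, limma). The other sets changed by −0.10 to 0.25, the last being 1442742_at with an adjusted p of 0.307 over all probe sets (limma).

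Slc8a1, the sodium/calcium exchanger of heart and smooth muscle, is read by 4 probe sets, and 1 of them, 1440201_at, passed the filter. It stood at 8.49, 8.86, 9.01 and 8.72 in the wild type aortas and at 8.96, 8.67, 8.66, 8.80 and 9.34 in the knockout aortas. Only knockout replicate 5 lay above the wild type range. The change was 0.12 (SE 0.16, 95% interval −0.24 to 0.47; adjusted p 0.711, limma). Dropping knockout replicate 5 moved it to 0.00054, and dropping wild type replicate 4 to 0.195. The remaining sets lay between 2.35 and 3.97 on every array.

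Slc8b1, the exchanger of the inner mitochondrial membrane, lay somewhat higher in the knockout aortas without passing the test. Its log2 values were 5.49, 5.46, 5.31 and 5.04 in the wild type aortas. In the knockout aortas they were 5.56, 5.80, 5.74, 5.49 and 5.43. Every value lay below the array medians of 5.88 to 5.97, and with a floor of 6 the gene was not tested. Of the knockout arrays 3 lay above every wild type array, and replicates 4 and 5 overlapped with them. The wild type mean was 5.33 ± 0.20 (SD, n = 4) and the knockout mean 5.60 ± 0.16 (SD, n = 5), which is a change of 0.28 (SE 0.11, 95% interval 0.019 to 0.53). The unadjusted p was 0.0379 and the adjusted p 0.226 (limma). Without wild type replicate 5 the change was 0.18.

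**Figure D3:**
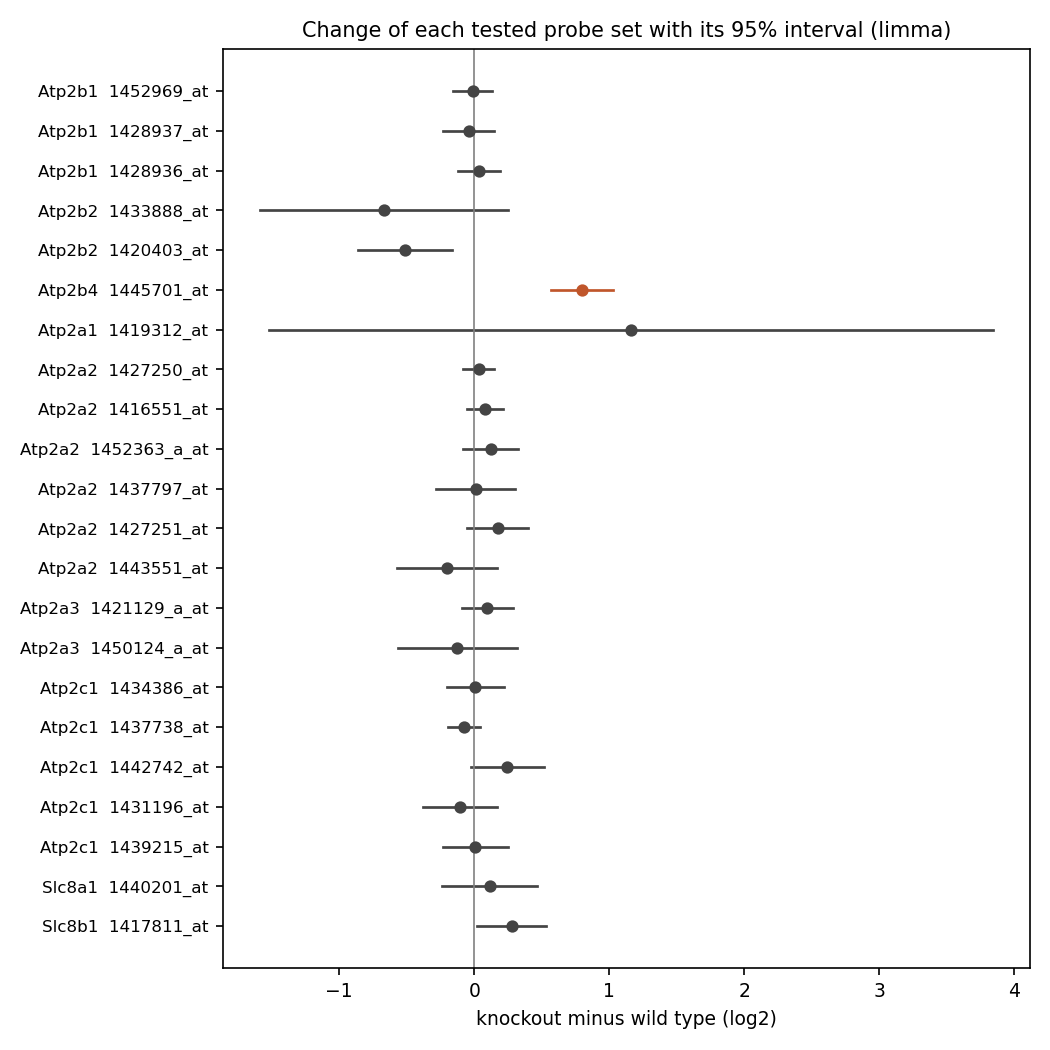
Change (knockout minus wild type, log2) of each of the 22 tested probe sets, as a point with its 95% interval from limma. The Atp2b4 interval, drawn in orange, runs from 0.57 to 1.03 and is a description that tests nothing, since this difference chose the gene. Among the other 21 probe sets, the intervals of Atp2b2 1420403_at and Slc8b1 leave out 0, without passing the adjustment. That of Atp2a1 is the widest.

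Apart from Atp2b4, 0 of the 8 genes passed an adjusted p of 0.05 in limma, and 1 (Slc8b1) had an unadjusted p under 0.05. Over all 14321 tested genes, 0.0559% passed and 19.9% had an unadjusted p under 0.05. Of the 8 genes, the knockout mean was higher in 6 and lower in 2, and their median change was 0.065, beside 56.7% higher and a median of 0.027 over all genes. By probe set, 0 of the other 21 passed, beside 0.0792% of 26504 tested, and 2 had an unadjusted p under 0.05, beside 18.9%. Of these 21 probe sets 13 were higher, beside 52.7% of all, with a median change of 0.010 beside 0.011. The groups did not overlap for 0 of these 21 probe sets, beside 6.42% of all probe sets and 6.76% of all genes. The 2 with an unadjusted p under 0.05 were Atp2b2 1420403_at, which was lower, and Slc8b1, which was higher.

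Atp2b4 was also set against each relative on the same array, as a log2 difference whose wild type mean was put at 0. Since Atp2b4 was chosen for its height in the knockout, these differences are descriptions. Relative to Atp2b1, the other pump of this membrane that is known from most tissues, the knockout arrays stood at 0.58 to 1.08 and the wild type arrays at −0.13 to 0.21. Relative to Atp2a2 they stood at 0.59 to 0.99 against −0.17 to 0.21, and relative to Atp2a3 at 0.57 to 1.01 against −0.038 to 0.042. The genotypes were likewise apart relative to Atp2c1 (0.62 to 1.10 against −0.47 to 0.23). They were apart by little relative to Slc8b1, whose nearest arrays were 0.45 and 0.34, and to Atp2b2, whose nearest arrays were 0.93 and 0.84. They overlapped relative to Slc8a1 (0.18 to 1.10 against −0.29 to 0.47) and to Atp2a1, where knockout replicate 3 stood at −5.11.

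Deviations of the relatives from their genotype means were also set against those of Atp2b4. Over the 9 arrays r ran from −0.572 (Atp2c1) and −0.551 (Slc8a1) to 0.438 (Atp2b2) and 0.501 (Atp2a3). For Atp2b1 r was 0.025 and for Slc8b1 0.360. The 2 arrays farthest from the Atp2b4 median over both genotypes, wild type replicates 3 and 4, were then left out. Both are low wild type arrays, so the genotype difference shaped this choice. The r values shifted to −0.024 for Atp2a3, −0.435 for Atp2b1, 0.718 for Atp2b2 and 0.805 for Slc8b1. With so few arrays they are given as a description.

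The 5 tested genes whose deviations were most like those of Atp2b4 over the 9 arrays were Gm15417 (r 0.977, rho 0.967), Gpn2 (r 0.957, rho 0.833), Mir99ahg (r 0.948, rho 0.967), Zfp704 (r 0.942, rho 0.850) and Zfp935 (r 0.941, rho 0.917). The 3 most opposite were the aryl hydrocarbon receptor gene Ahr (r −0.955, rho −0.967), the myosin gene Myo10 (r −0.952, rho −0.950) and the olfactory receptor gene Olfr78 (r −0.949, rho −0.983). Without wild type replicates 3 and 4 their r was 0.916 to 0.987 and −0.930 to −0.971. The choice of these arrays followed the genotype difference, so it does not test how far single arrays carry r. They are the extremes of 14321 genes and are named as such. None of the 8 had passed between genotypes (adjusted p 0.116 to 0.875, limma).

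By gene order (assembly GRCm38.p6), the nearest tested neighbours of Atp2b4, on chromosome 1, were Lax1 and Optc. Optc, which encodes the small leucine-rich proteoglycan opticin, stood at 8.03 in wild type and 8.37 in knockout aortas, a change of 0.35 (SE 0.07; unadjusted p 0.000456, adjusted p 0.0906, limma). Lax1, a lymphocyte adaptor, stood at 0.37 (SE 0.22; adjusted p 0.368). Farther out, Zbed6 and Snrpe on 1 side stood at 0.18 and 0.11, and the matrix proteoglycan genes Prelp and Fmod on the other at 0.11 and −0.09, with adjusted p-values of 0.250 to 0.623 (limma). Of the 6 neighbours 5 were higher in the knockout, 2 (Optc and Snrpe) had an unadjusted p under 0.05 and 0 passed in limma, beside 56.7%, 19.9% and 0.0559% of all tested genes. The other members lie on other chromosomes, 2 of them (Atp2a2 and Slc8b1) on chromosome 5.

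Of 73 further calcium-handling genes, sorted into 6 lists by role, 55 were tested, 4 were too dim and 14 were not analysed here, the calmodulin genes among them. In limma 0 passed over all genes in either direction, and 8 (14.5%) had an unadjusted p under 0.05, 2 higher and 6 lower, beside 19.9% of all genes. The groups did not overlap for 4 genes (7.27%), beside 6.76% of all. Higher values in the knockout were seen in 24 of the 55 genes and lower values in 31, with a median change of −0.012 beside 0.027 over all genes. Without wild type replicate 1, when 1051 genes passed in all, 2 listed genes passed, both lower: Slc24a4 (adjusted p 0.026) and Mcu (adjusted p 0.0404).

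Among partners and regulators of the pumps, 5 of 9 tested genes were higher, with a median of 0.095, and 0 had an unadjusted p under 0.05. Pln, which encodes phospholamban, the inhibitor of Atp2a2, had a wild type mean of 8.79 ± 0.48 (SD, n = 4) and a knockout mean of 9.03 ± 0.27 (SD, n = 5, adjusted p 0.561, limma). The smallest p-values were those of Hax1, a partner of phospholamban, at 0.10 (adjusted p 0.323), Mrln, a small inhibitor of Atp2a1 in skeletal muscle, at 0.46 (adjusted p 0.338) and Fxyd1, which regulates the sodium pump, at 0.095 (adjusted p 0.391). Mrln read 6.33 on knockout replicate 3, its highest array, and 4.56 to 5.53 elsewhere; that array also held the skeletal muscle markers.

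Other exchangers and pumps that move calcium lay lower in 5 of 7 tested genes, with a median of −0.52. Slc8a3, a relative of Slc8a1 found in nerve and skeletal muscle, stood at −0.52 (SE 0.15, adjusted p 0.148) and Slc24a4, a potassium-dependent exchanger, at −0.60 (SE 0.18, adjusted p 0.150). Slc8a2 stood at 0.19 (SE 0.11, adjusted p 0.362). Atp2b3, the remaining plasma membrane pump, known from brain, read 8.43 on wild type replicate 3 and 6.43 on knockout replicate 1, the arrays with the most neuron markers, and 3.64 to 5.52 on the other arrays. Its change was −1.30 (SE 0.86, adjusted p 0.423, limma).

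Calcium entry and release channels were higher in 11 of 17 tested genes, with a median of 0.060. The inositol trisphosphate receptor gene Itpr2 stood at −0.32 (SE 0.11, adjusted p 0.161) and lay lower on every knockout array than on any wild type array. The cation channel gene Trpc1 stood at −0.27 (SE 0.093, adjusted p 0.180) and Cacna1c, the voltage-gated channel of smooth muscle, at 0.27 (SE 0.14, adjusted p 0.297). Of 11 reticulum calcium-binding proteins 7 were lower (median −0.020). The smallest p-values were those of Rcn3, which was higher, at 0.29 (SE 0.10, adjusted p 0.193), the cardiac calsequestrin gene Casq2 at −0.71 (SE 0.27, adjusted p 0.202) and the chaperone gene Hspa5 at −0.13 (SE 0.069, adjusted p 0.318). Casq2 read 8.63 on wild type replicate 4, its highest array, and 6.65 to 7.79 elsewhere. Its groups did not overlap: the other wild type arrays began at 7.42, and the knockout arrays ended at 7.40. That array also had the highest mean of the cardiomyocyte markers, at 8.26, against 6.11 to 7.54 elsewhere. Their part in the Casq2 values was not tested.

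Genes of mitochondrial calcium uptake were lower in 7 of 8, with a median of −0.035. Mcu, the pore of the uniporter through which mitochondria take up the calcium that Slc8b1 lets out, read 10.00, 10.05, 10.19 and 10.15 in the wild type aortas. It read 9.87, 9.77, 9.96, 9.81 and 9.82 in the knockout aortas, all below the wild type arrays. The change of −0.25 (SE 0.062) had an adjusted p of 0.131 (limma). Letm1 stood at −0.32 (SE 0.18, adjusted p 0.353) and Vdac2 at −0.059 (SE 0.053, adjusted p 0.551).

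The sodium gradient across the plasma membrane, which drives Slc8a1, was represented by 3 tested genes, all sodium pump β subunits. Atp1b2 lay higher on all 5 knockout arrays (10.52 to 10.73) than on all 4 wild type arrays (10.16 to 10.42), a change of 0.29 (SE 0.073, adjusted p 0.131, limma). Atp1b1 stood at −0.51 (SE 0.34, adjusted p 0.433) and was highest on wild type replicate 3 at 12.15. Atp1b3 stood at −0.014 (SE 0.050, adjusted p 0.899).

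**Figure D4:**
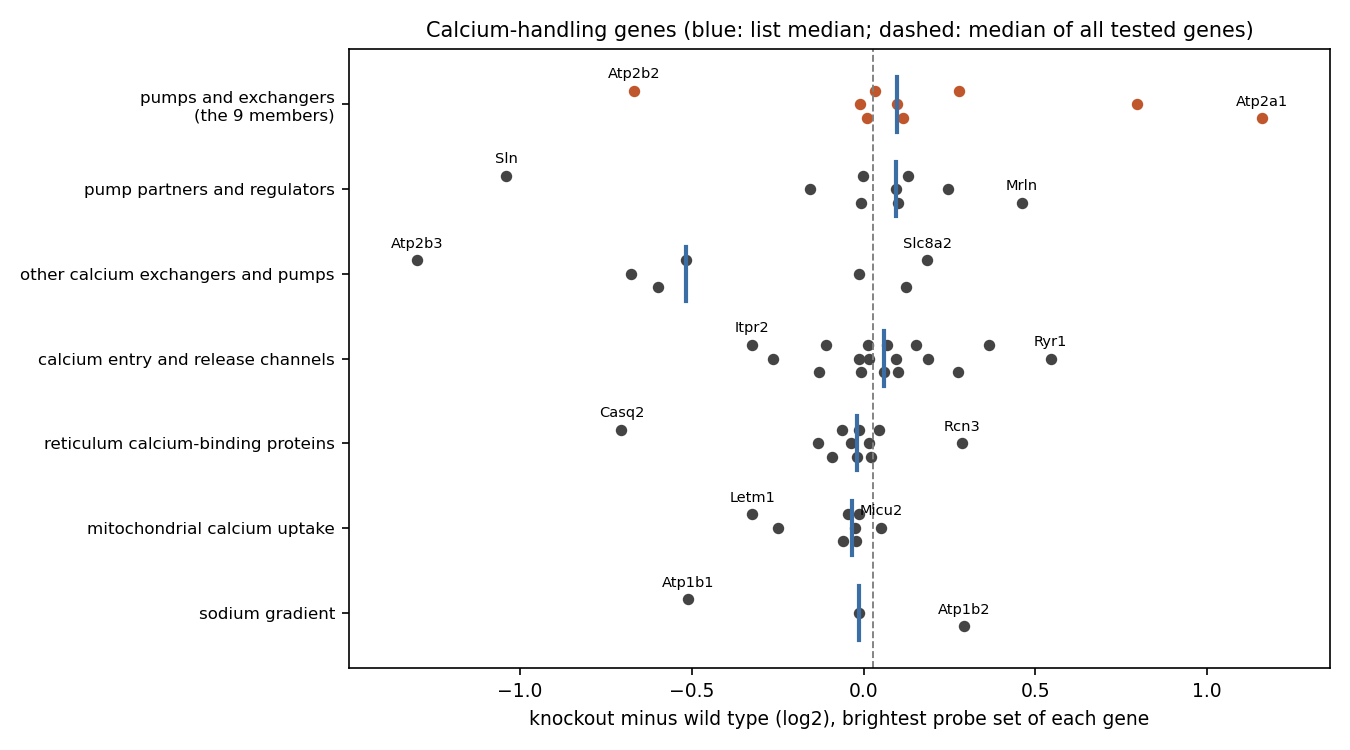
Change (knockout minus wild type, log2) of each tested gene's brightest probe set, in orange for the 9 pumps and exchangers and in grey for the 6 calcium-handling lists, with the lowest and highest gene of each row named. Blue bars mark row medians, 0.097 for the 9 genes, and the dashed line marks the median of all tested genes, 0.027; 0 of the 55 listed genes passed in limma.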

How the data were processed

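Values were deposited on what was read as a log2 scale: the authors' GCRMA, named in the submitters' processing notes without a version, removes background, brings the arrays to one distribution and summarises each probe set. The log2 scale is inferred from the values, which run from about 2 to 15 on each array. Nothing was scaled again. Probe sets were named from the platform annotation (34945 with 1 symbol; 932 with several and 9211 without were not used). Those over 4 on at least 4 arrays were tested, and a gene was represented by its brightest probe set. The genotypes were fitted in limma 3.58.1 (R 4.3.3; lmFit, then eBayes, no covariate) over all genes or all probe sets, with Benjamini-Hochberg adjustment and a threshold of 0.05. Intervals are 95% and moderated. The number of arrays limits precision. Relations of the 9 members to 8 marker lists (84 genes, 76 tested) used deviations from genotype means and all 2880 permutations within genotype, adjusted over 72.

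The members, lists and naming rule (all members, the 3 smallest p-values of each list, the 5 most like and 3 most opposite genes, 3 neighbours on each side) were chosen with earlier results of these data known. Alternatives were other filters, normalizations, limma options, covariates, the replicate number as a block and leaving out each array. Protein sequences and calmodulin genes were not used here.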

Additional observations from a re-analysis of the deposited data

Results flagged for a closer look

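Of 44 groups of values (22 tested probe sets in 2 genotypes), 3 held an array farther from its group than Dixon's 95% limit; chance gives about 1 in 20 groups. Atp2a1 on knockout replicate 3 was 11.90, while the other knockout arrays ended at 6.27. Atp2a1 on wild type replicate 1 was 5.47, below 6.01 to 6.11 on the rest. Atp2b1 on probe set 1428936_at was 7.70 on wild type replicate 3, with the rest of the group at 7.73, a gap that is small in size.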

How the results depend on the processing

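The Atp2b4 difference lay between 0.73 and 0.86 under every alternative run. The count of members past the threshold was 1 by gene and 1 by probe set (Atp2b4). It was 0 by gene without a filter and with the fast skeletal muscle, neuron or adipocyte covariate. With 1 array left out, it stayed at 1 in 2 of 9 fits by gene and 2 of 9 by probe set, and was 0 in the rest. The fits that kept it were those without wild type replicate 1 and without knockout replicate 4. Since Atp2b4 was selected on its difference in these values, the range of that difference and these counts are a description and test nothing. The replicate numbers did not pair the arrays: same-numbered deviations correlated at −0.361 to 0.214, and 0 of 4 wild type arrays correlated best with their own number. With the replicate block 0 members passed by gene and 0 by probe set, and Atp2b4 stood at 0.74. Of all genes 0 passed in limma (1963 at an unadjusted p under 0.05) and of all probe sets 1 (3622 unadjusted). Wild type replicate 2 has no values, so the changes with the block equal those without knockout replicate 2. The count of calcium-handling genes, 0, ran from 0 to 2 when 1 array was left out.

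Of 159 values of the other 8 genes under alternatives, 0 passed and 14 changed sign. Atp2a1 became −0.11 with the fast skeletal muscle covariate and ran from −0.048 (without knockout replicate 3) to 1.55 with 1 array left out. With the probe set of largest variance, Atp2a2 became −0.20 and Atp2a3 −0.13. Atp2b1 became 0.0060 with the replicate block, the same as without knockout replicate 2. It ran from −0.033 (without wild type replicate 3) to 0.025 (without wild type replicate 5). Atp2c1 became −0.026 and Slc8a1 −0.063 with the adipocyte covariate, and Atp2c1 ran from −0.038 (without wild type replicate 4) to 0.10 (without wild type replicate 3). The cause of the other sign changes, all of values near 0, was not tested. All genes passing numbered 8, but 19 with a floor of 6, 33 with trend and robust options, 73 with array weights, 86 at an adjusted p of 0.1, 3 and 2 with the skeletal muscle and adipocyte covariates, and 2 to 1051 with 1 array left out; by probe set, 21 became 66 with trend and robust options, 367 with array weights, 1 with the replicate block and 6 to 1673 with 1 array left out.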
